A study of Mus musculus with 17 samples.

Results

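The comparison of LIM with L2i in a pair of mouse embryonic stem (ES) cell lines rests on 4 of the 17 libraries of the series, picked by their labels alone. LIM is represented by 1 library of R1 and 1 of CGR8 (n = 2), and L2i by 1 library of each line (n = 2). All 4 cultures were serum-free, on gelatin and a basement membrane extract, and all contained LIF and 0.1 uM of the MEK inhibitor PD325901. LIM added 2 uM IWP2, which blocks the secretion of Wnt ligands, whereas L2i added 3 uM CHIR99021, an inhibitor of GSK3. The LIM cells were at passage 30 (R1) and 34 (CGR8), after 5 passages in 2i (CHIR99021 with PD325901) and then 4 (R1) or 6 (CGR8) passages in LIM. The L2i cells were at passage 32 (R1) and 31 (CGR8), after 10 (R1) and 8 (CGR8) passages in 2i. The number of passages in 2i therefore cannot be told apart from the medium, whereas total passage was lower in LIM in R1 and higher in LIM in CGR8. Nor can the loss of CHIR99021 be told apart from the presence of IWP2. A further 4 libraries of the same lines, in LIF with 12 ng per ml FGF2, 20 ng per ml Activin A and 2 uM IWP2 (LFAI, 35 h or 4 days), entered the fit to estimate the spread and are not described. Each line is a single source of cells, so p-values measure the spread between these libraries.

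In canonical Wnt signalling, ligands modified by the acyltransferase Porcn bind Frizzled receptors with the co-receptors Lrp5 and Lrp6, which stops GSK3 from marking beta-catenin for degradation. Beta-catenin then enters the nucleus and acts with TCF/LEF factors, in ES cells in good part by relieving repression by Tcf7l1. CHIR99021 mimics the signal inside the cell by inhibiting GSK3, a kinase that also acts on glycogen synthase, Myc and many other proteins, while IWP2 inhibits Porcn and so removes the ligands. MEK inhibition blocks the ERK kinases downstream of FGF receptors, the main route by which ES cells leave the naive state. The comparison asks what the loss of Wnt pathway activation does while that route stays inhibited.

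The 4 libraries held 15.8 M (R1) and 16.3 M (CGR8) gene counts in LIM and 22.6 M (R1) and 15.1 M (CGR8) in L2i. Levels are CPM (counts scaled to a common library size) with scaling by trimmed mean of M-values (TMM), and in every pair of values R1 comes before CGR8. Pou5f1, which encodes the pluripotency factor Oct4, was at 1190 and 1339 CPM in LIM and 1823 and 1378 CPM in L2i, so both media held cells with the transcript that defines pluripotent cells (log2 fold -0.33 ± 0.16, adjusted p = 0.17). Not all pluripotency factors held their level, as Nanog was called lower in LIM (log2 fold -1.86). Folds are LIM over L2i, with the standard error derived from the F statistic, and genes were called at an adjusted p under 0.05 in edgeR's quasi-likelihood test with the line as a block and Benjamini-Hochberg adjustment. In bulk RNA, fewer cells that express a gene and less RNA per cell cannot be told apart.

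Of 15525 genes tested, 3503 (22.6%) were called. Higher in LIM were 2023 genes (13%) and lower were 1480 (9.53%). The genes that rose moved further than those that fell. The median fold of the called genes was 3.8 for those higher in LIM and 2.13 for those lower. A log2 fold of at least 3 was reached by 604 of the genes called higher and by 166 of those called lower. No count in either L2i library was found for 117 of the genes called higher, whereas 8 of the genes called lower had none in LIM. A gene without counts in L2i or in LIM was tested only if other libraries, LFAI among them, carried it past the filter on low counts. The counts of 117 and 8 are therefore no measure over all genes. Genes called higher took up 11 and 10.3% of all gene counts in LIM, against 4.8 and 4.95% in L2i. Genes called lower took up 7.7 and 8.28% in LIM, against 14.5 and 15.2% in L2i. The median over all tested genes was a log2 fold of 0.01 (0.02 in R1, 0.00 in CGR8). Protein-coding genes made up 1934 of the genes called higher and 1413 of those called lower.

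R1 and CGR8 shared the sign of the change for all 3503 called genes, which the test favours since the lines are its replicates. Across all tested genes the log2 folds of R1 and CGR8 correlated at 0.74 (Pearson, a description across genes, which are not independent). The counts depend on the libraries. They were 1299 higher and 632 lower without the R1 LIM library, 1265 and 832 without the CGR8 LIM library, 988 and 573 without the R1 L2i library, and 1458 and 992 without the CGR8 L2i library. In all 4 of these fits, 800 genes stayed higher (5.15%) and 421 stayed lower (2.71%), and a gene named below as changed stayed called in all 4 unless stated otherwise. For gene lists, counts in the fits that leave out R1 LIM, CGR8 LIM, R1 L2i and CGR8 L2i follow in this order, as leave-one-out counts. The count of any list is to be set against the 13% called higher and 9.53% called lower over all tested genes. Where no member of the Hox, contractile, intermediate filament, cholesterol, replication or mitosis list is called in a direction below, 0 were called there by DESeq2 or limma-voom and 0 had an unadjusted p under 0.05 in edgeR.

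**Figure D1:**
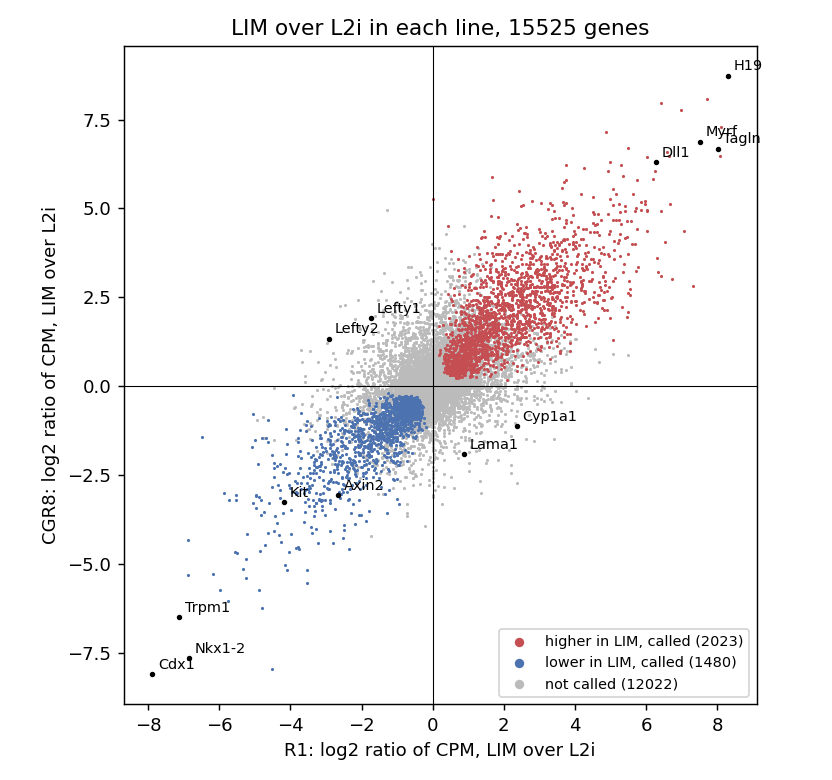
Log2 ratio of CPM, LIM over L2i, in R1 (horizontal) and CGR8 (vertical) for the 15525 tested genes, with called genes coloured and 13 genes named. Called genes lie in the upper right or lower left, while Lefty1, Lefty2, Cyp1a1 and Lama1 lie in the quadrants where the lines moved oppositely.

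An R1 time course that shares no library with these 4 gave the direction again, with 1 library per day and no test. It was grown on another coating and sequenced with another protocol. Between day 4 in LIM and day 0 in L2i, 1680 of the 2023 genes called higher were also higher (83%, against 50.9% of all tested genes), with a median log2 ratio of 0.66. Of the 1480 called lower, 1189 were lower (80.3%, against 49.1% of all tested genes), with a median of -0.37. The medians in R1 of the set with both lines, after passages in LIM, were 1.77 and -1.15. Past 2-fold at day 4 in the same direction were 35.2% of the genes called higher and 25.1% of those called lower.

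Most genes with the smallest p in the whole comparison rose in LIM, among them regulators and surface proteins. Myrf, a membrane-bound transcription factor known for myelin genes in oligodendrocytes, stood at 192 and 187 CPM in LIM and at 0.919 and 1.46 CPM in L2i (log2 fold 7.36 ± 0.27, adjusted p = 3.6e-06). Pxdn, a peroxidase that cross-links collagen IV, stood at 93.2 and 63.8 CPM in LIM and at 1.7 and 1.99 CPM in L2i (log2 fold 5.41 ± 0.22, adjusted p = 3.6e-06). Crabp2, which delivers retinoic acid to the nucleus, stood at 94 and 95.7 CPM in LIM and 2.67 and 1.93 CPM in L2i (log2 fold 5.34 ± 0.22, adjusted p = 3.6e-06). Sox11, a factor of early neural and epithelial progenitors, stood at 51.1 and 42.1 CPM in LIM and 1.79 and 1.53 CPM in L2i (log2 fold 4.81 ± 0.20). In none of these did the libraries of LIM and L2i come near each other. Podxl, an anti-adhesive sialomucin of apical membranes, rose 16-fold and Crmp1, a microtubule-binding protein of growing axons, rose 25.6-fold, both in all 4 leave-one-out fits. Car4, a membrane-anchored carbonic anhydrase, had 25.4 and 33.1 CPM in LIM and no count in L2i, at least a 360-fold rise over a floor of 3 counts in both L2i libraries together (fitted log2 fold 12.01, and 12.79 without the R1 LIM and 11.36 without the CGR8 LIM library). The T-type calcium channel gene Cacna1g, at 11.6 CPM in both LIM libraries and 0 in both L2i libraries, rose at least 143-fold, and the tight junction gene Cldn2 at least 70.3-fold.

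The steepest falls included the posterior body axis genes Cdx1, Nkx1-2 and Cdx2, but most were of genes with other roles. Among these were Cnga4, Htr5a and Nanos3, with log2 folds of -7.03, -6.44 and -6.41. Their folds varied with the library left out, to -10.94, -9.53 and -10.48 without the CGR8 LIM library. Cdx1, a homeobox gene of the posterior embryo and gut, had 0.0626 and 0.119 CPM in LIM and 43.3 and 66 CPM in L2i. LIM held 3 counts in all, so L2i over LIM is 575, with 197 to 2792 as the 95% interval for counting error. The fitted log2 fold was -9.13 ± 0.49 (adjusted p = 2.0e-05), and -10.06 without the CGR8 L2i library. Nkx1-2, a homeobox gene of the caudal epiblast where trunk progenitors sit, had 0.313 and 0.238 CPM in LIM and 50.3 and 71.5 CPM in L2i (log2 fold -7.74 ± 0.39, adjusted p = 7.8e-06). Trpm1, a cation channel of retina and pigment cells, had 0.438 and 1.43 CPM in LIM and 78.5 and 139 CPM in L2i (log2 fold -6.91 ± 0.28, adjusted p = 6.3e-06). Mobp, a myelin protein gene, fell 42.7-fold. Among genes with high levels in L2i, Kit, Mylpf (a myosin light chain of fast muscle), Alpl (tissue-nonspecific alkaline phosphatase, a stain for ES cells) and Tfcp2l1 (a naive factor) fell by log2 folds of 3.71, 3.74, 2.46 and 3.41.

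Genes of Wnt reception moved both ways, while calls among core genes of the pathway were near the background. Of 19 tested genes of the destruction complex and the co-factors of beta-catenin, 2 rose (leave-one-out counts 1, 1, 0 and 2) and 1 fell (1, 0, 1 and 1), which is 10.5 and 5.26% of the list, against 13 and 9.53% of all tested genes. Ctnnb1, which encodes beta-catenin, had 1138 and 1233 CPM in LIM and 982 and 1097 CPM in L2i (log2 fold 0.19 ± 0.12, adjusted p = 0.29). Gsk3a, Axin1, Lrp5, Lrp6 and Tcf7l1 had log2 folds of -0.33, -0.24, -0.16, 0.14 and 0.10 and adjusted p of 0.098, 0.2, 0.55, 0.55 and 0.63. Among 19 receptors, co-receptors and secretion factors, 6 rose (leave-one-out counts 5, 7, 5 and 6) and 3 fell (3, 4, 3 and 3), with a median log2 fold of 0.25.

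Paired genes of the same family moved in opposite directions. Ror1, a Frizzled-related receptor tyrosine kinase for non-canonical Wnt ligands, had 69.3 and 39.4 CPM in LIM and 3.59 and 3.98 CPM in L2i (log2 fold 3.82 ± 0.29, adjusted p = 5.8e-05). Its paralog Ror2 had 10.8 and 11 CPM in LIM and 51.2 and 49.3 CPM in L2i (log2 fold -2.20 ± 0.30, adjusted p = 0.001). Among Frizzled receptors, Fzd7 was at 86.1 and 110 CPM in LIM and 18.1 and 19.8 CPM in L2i (log2 fold 2.37 ± 0.18), and Fzd2 rose 4.11-fold. Fzd10 was at 15.4 and 14.9 CPM in LIM and 60 and 81.3 CPM in L2i (log2 fold -2.19 ± 0.29). Wnt5a, a ligand of the non-canonical branch, had 12.3 and 6.48 CPM in LIM and 0 and 0.0664 CPM in L2i, where 1 read was counted (ratio 342, counting interval 61 to 13567). Its fitted log2 fold of 8.07 was 6.53 without the R1 L2i library and 10.58 without the CGR8 L2i library. Wnt5b had 0.814 and 0.832 CPM in LIM and 5.42 and 7.64 CPM in L2i (log2 fold -2.96 ± 0.45, adjusted p = 0.0017). Porcn, the target of IWP2, fell 4.74-fold to 3.76 and 4.28 CPM in LIM, against 18.5 and 19.5 CPM in L2i.

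Of 12 tested Wnt ligand genes, 7 rose (leave-one-out counts 3, 5, 2 and 5) and 1 fell, but most are at a few CPM. Those that rose and fell are 58.3 and 8.33% of the tested ligands, against 13 and 9.53% of all tested genes. Of 19 ligand genes only these 12 passed the filter on low counts, which a gene high in LIM or L2i passes more easily. DESeq2 called 4 of them higher. Summed over the ligand list, the level was 34.1 and 18.8 CPM in LIM and 18.2 and 14.7 CPM in L2i.

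Known transcriptional targets of the pathway moved in both directions, and Lef1 rose. Lef1, a TCF/LEF factor that is itself a target of beta-catenin, had 32.3 and 75.5 CPM in LIM and 8.09 and 9.03 CPM in L2i (log2 fold 2.65 ± 0.44, adjusted p = 0.0027, and 3.33 without the R1 LIM and 1.73 without the CGR8 LIM library). Of 10 TCF/LEF factors and Groucho co-repressors 3 rose (leave-one-out counts 3, 2, 2 and 2) and 3 fell (1, 3, 1 and 2). The targets Axin2, Notum and Sp5 fell. Axin2, a scaffold of the destruction complex induced by beta-catenin, had 15.8 and 17.8 CPM in LIM and 99.3 and 151 CPM in L2i (log2 fold -2.88 ± 0.21, adjusted p = 4.6e-05). Notum, a secreted enzyme that inactivates Wnt ligands, had 62.7 and 61.6 CPM in LIM and 137 and 147 CPM in L2i (log2 fold -1.19 ± 0.16). Sp5, a zinc finger factor induced by Wnt, had 1.13 and 0.0594 CPM in LIM and 28.6 and 44.8 CPM in L2i (log2 fold -6.05 ± 0.74), and its fold ranged widely with the library left out. It was -9.28 without the R1 LIM, -4.76 without the CGR8 LIM, -9.31 without the R1 L2i and -4.68 without the CGR8 L2i library. Among inhibitors of the pathway, Sfrp2, a secreted Wnt binder, rose 5.9-fold and Cxxc4, an inhibitor of Dishevelled, had 1.88 and 1.66 CPM in LIM and no count in L2i, a rise of at least 21.7-fold. Of 18 inhibitors and feedback genes, 4 rose and 4 fell.

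Promoters of the fallen genes Sp5, Axin2 and Nkx1-2 are shown as a zinc finger factor induced by Wnt, a feedback gene of the pathway and a posterior homeobox gene, each called lower in all 4 leave-one-out fits. The sequences are from RefSeq on GRCm38.p6, from 250 bases before to 50 bases after the start of the transcript, 5′ to 3′ on the strand of the gene. Capitals mark a TCF/LEF match, CTTTGAA or CTTTGAT on either strand.
Sp5 (chr2:70474673-70474972, + strand): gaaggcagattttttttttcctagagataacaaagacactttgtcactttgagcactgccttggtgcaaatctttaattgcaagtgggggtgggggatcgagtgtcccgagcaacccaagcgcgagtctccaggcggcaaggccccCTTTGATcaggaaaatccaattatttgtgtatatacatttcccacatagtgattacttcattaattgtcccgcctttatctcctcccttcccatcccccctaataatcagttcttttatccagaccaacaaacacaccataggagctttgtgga
Axin2 (chr11:108920099-108920398, + strand): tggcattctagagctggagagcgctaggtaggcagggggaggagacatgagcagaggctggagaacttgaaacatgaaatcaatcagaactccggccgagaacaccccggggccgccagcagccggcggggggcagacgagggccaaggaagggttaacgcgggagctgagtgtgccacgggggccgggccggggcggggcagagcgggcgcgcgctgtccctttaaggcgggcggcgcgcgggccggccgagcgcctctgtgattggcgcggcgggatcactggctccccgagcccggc
Nkx1-2 (chr7:132599588-132599887, - strand): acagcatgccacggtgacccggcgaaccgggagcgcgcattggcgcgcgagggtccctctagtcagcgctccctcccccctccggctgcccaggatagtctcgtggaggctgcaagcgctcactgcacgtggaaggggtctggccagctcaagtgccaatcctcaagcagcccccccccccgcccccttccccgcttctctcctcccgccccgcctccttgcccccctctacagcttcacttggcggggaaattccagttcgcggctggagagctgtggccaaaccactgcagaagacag
The match in Sp5 begins 104 bases before the start, and the other windows hold none, which says only that these letters are not in them. Only 11260 of the 15525 tested genes had a promoter in the reference, and the others were not searched. Of all promoters searched, 830 of 14381 (5.77%) held a match, as did 102 of 2049 (4.98%) for genes called higher and 99 of 1454 (6.81%) for genes called lower. In the Wnt lists, 12 of the 17 genes called lower had a promoter in the reference. Cdx1, Notum, Porcn and Aes were among those not searched. Of the 17 promoters of these 12 genes, 3 held a match (17.6%), those of Sp5, T and 1 of 3 promoters of Wnt5b.

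**Figure D2:**
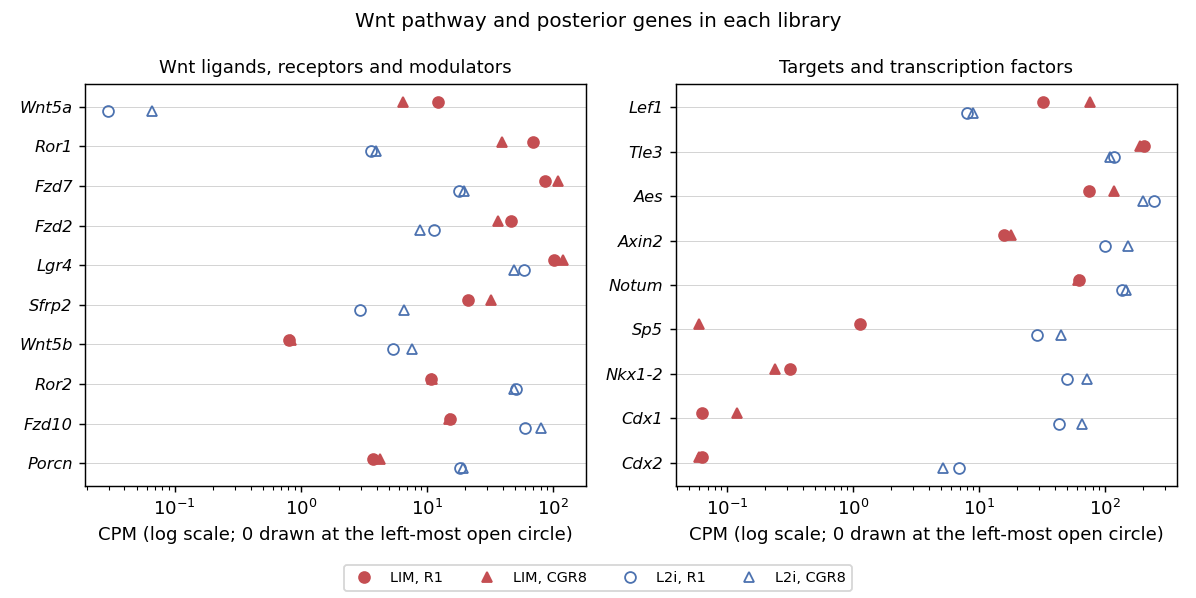
CPM on a log axis in each library for ligands, receptors and modulators of Wnt (left) and for targets and transcription factors (right), LIM filled and L2i open, circles R1 and triangles CGR8. Wnt5a, Ror1, Fzd7, Fzd2, Lgr4 and Sfrp2 lie higher in LIM, and Wnt5b, Ror2, Fzd10 and Porcn lie lower; the R1 L2i value of Wnt5a, which is 0, is drawn at the left-most open circle.

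Of 39 Hox genes, which pattern the body axis, 12 passed the filter on low counts. Of these 7 fell (leave-one-out counts 2, 3, 2 and 5) and none rose, and 8 of the 39 had no count in either medium. A gene that is high in L2i passes that filter more easily, so the share among those tested is no measure of the family. Of 17 genes of the primitive streak and posterior, 5 fell (leave-one-out counts 6, 4, 5 and 5) and 5 rose (2, 2, 2 and 3). Cdx2 had 0.0626 and 0.0594 CPM in LIM and 6.89 and 5.18 CPM in L2i, a ratio of 102 on few counts (interval 27.8 to 844). Of 7 marker genes of endoderm and mesoderm, 1 rose (1, 0, 1 and 0), with a summed level of 30.4 and 34.7 CPM in LIM and 31 and 23.6 CPM in L2i.

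Genes of ligands and receptors of several other pathways changed as well. The receptor Kit, which binds stem cell factor, had 30.6 and 72.3 CPM in LIM and 553 and 696 CPM in L2i (log2 fold -3.71 ± 0.36, adjusted p = 0.00016). Its ligand gene Kitl had 63.5 and 18.5 CPM in LIM and 2.07 and 2.46 CPM in L2i (log2 fold 3.95 ± 0.45), 3.04 without the R1 L2i and 4.81 without the CGR8 L2i library. Both libraries of each medium stood clear of the other medium for receptor and ligand. Efnb2, an ephrin that signals in both directions between cells, had 80.8 and 62.5 CPM in LIM and 2.02 and 2.32 CPM in L2i (log2 fold 5.05 ± 0.21, adjusted p = 3.6e-06), and its receptor gene Ephb2 had 41.4 and 40.2 CPM in LIM and 7.31 and 6.44 CPM in L2i (log2 fold 2.57 ± 0.23). Of 20 ephrins and Eph receptors 6 rose (leave-one-out counts 4, 5, 3 and 6) and 1 fell (0 in each). Among 38 semaphorins, plexins, neuropilins, slits and netrins 13 rose (11, 7, 12 and 8) and 4 fell (2, 3, 3 and 3). Of the ephrin list 30% rose and 5% fell, and of the semaphorin list 34.2 and 10.5%, against 13 and 9.53% of all tested genes. The guidance cue Slit2 had 3.88 and 4.99 CPM in LIM and 40.5 and 52.3 CPM in L2i (log2 fold -3.39 ± 0.38), while Sema4c rose 7.13-fold.

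The Notch pathway passes signals between touching cells. Of 17 of its genes tested, 10 rose (leave-one-out counts 9, 9, 9 and 9) and 2 fell (0, 2, 1 and 2), with a median log2 fold of 0.87. The ligand gene Dll1 had 34.4 and 30.4 CPM in LIM and 0.322 and 0.266 CPM in L2i (log2 fold 6.75 ± 0.53, adjusted p = 6.6e-05). Dll3, a ligand that acts mainly within the cell as an inhibitor, rose 7.05-fold and Jag2 3.37-fold. Hes6, a factor that counters Hes1, rose 4.3-fold, whereas Hes1 itself, a standard target of Notch, had 15.6 and 28.1 CPM in LIM and 47.5 and 52 CPM in L2i (log2 fold -1.26). Without the R1 LIM library its adjusted p was 0.051 and without the R1 L2i library 0.057. Dll1, Dll3 and Jag2 thus rose, while Hes1 fell in the fit of all libraries.

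Among 19 genes of IGF, insulin and PDGF signalling 9 rose (leave-one-out counts 8, 6, 6 and 7) and 3 fell (2, 2, 1 and 2). These are 47.4 and 15.8% of the list, against 13 and 9.53% of all tested genes. The summed level of the list was nonetheless lower in LIM, at 923 and 1145 CPM, against 1269 and 1381 CPM in L2i. Irs2, an adaptor of insulin receptors, had 74.9 and 40.1 CPM in LIM and 13.7 and 12.3 CPM in L2i (log2 fold 2.10 ± 0.25, adjusted p = 0.00044). In the Hedgehog list 4 of 11 rose and 1 fell (leave-one-out counts of those that rose 3, 5, 2 and 3). Those that rose and fell are 36.4 and 9.09% of the Hedgehog list. The Hedgehog target Gli1 had 30.1 and 31.6 CPM in LIM and 4.37 and 4.32 CPM in L2i (log2 fold 2.83 ± 0.25), and Gli2 fell 1.67-fold.

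Genes induced by ERK rose in part although the same dose of MEK inhibitor was present in both media. Summed over their list, the level was 863 and 995 CPM in LIM and 1035 and 945 CPM in L2i, so lower in LIM in R1. Of 20 tested, 5 rose (leave-one-out counts 5, 4, 5 and 6) and 1 fell (2, 1, 2 and 1), with a median log2 fold of 0.90. The phosphatase gene Dusp6, a direct ERK target that inactivates ERK, had 13.4 and 14.5 CPM in LIM and 4.04 and 5.44 CPM in L2i (log2 fold 1.57 ± 0.23, adjusted p = 0.0013). Dusp4 rose 4.74-fold and Spry1 3.17-fold. The gene called lower was Etv4, an ETS factor induced by FGF signalling. It had 1.38 and 4.99 CPM in LIM and 26.7 and 25.3 CPM in L2i (log2 fold -3.05, and -2.33 without the R1 LIM and -4.27 without the CGR8 LIM library). Of the 20 genes 14 were not called in either direction, and those that rose and fell are 25 and 5% of the list. The receptor gene Fgfr2 upstream also rose, to 139 and 96.7 CPM in LIM, against 16.5 and 17.5 CPM in L2i (log2 fold 2.76 ± 0.20). In the list of FGF ligands and receptors 42.9% rose and 4.76% fell, against 13 and 9.53% of all tested genes. Of 21 FGF ligands and receptors 9 rose (5, 7, 7 and 7) and 1 fell (0, 2, 0 and 1).

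Contractile genes build and tether actin and myosin filaments. Of 18 smooth muscle and contractile genes tested, 14 rose (leave-one-out counts 12, 12, 11 and 12) and none fell, with a median log2 fold of 1.42. Tagln, an actin-binding protein of smooth muscle, had 79.4 and 19.2 CPM in LIM and 0.184 and 0.0664 CPM in L2i (log2 fold 8.44 ± 0.49, adjusted p = 1.6e-05). Myl9, a regulatory myosin light chain, had 19.5 and 12.4 CPM in LIM and 0.138 and 0.0664 CPM in L2i (log2 fold 7.12 ± 0.42, adjusted p = 1.6e-05). Abundant members moved less. Cnn2, a calponin of many cell types, had 177 and 92.7 CPM in LIM and 29.3 and 20.3 CPM in L2i (log2 fold 2.41 ± 0.21), and Cnn3, Vcl, Actn1 and Cald1 had log2 folds between -0.23 and 0.26, none called. Flnc, a filamin of muscle, rose 31.7-fold.

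Keratins and other intermediate filaments rose as well, 8 of 12 tested (leave-one-out counts 7, 7, 7 and 8) and none fell, with a median log2 fold of 2.02. Krt18, a keratin of simple epithelia, had 37.9 and 26.8 CPM in LIM and 1.79 and 1.13 CPM in L2i (log2 fold 4.52 ± 0.25, adjusted p = 1.5e-05), and its partner Krt8 rose 7.07-fold. In the R1 time course Krt18 and Krt8 were not higher at day 4 in LIM, with log2 ratios of -0.62 and -2.15 to day 0. Desmin (Des), the muscle filament, rose 5.25-fold and nestin (Nes), a filament of progenitors, 3.15-fold. Vimentin (Vim), at 251 CPM in both LIM libraries and 204 and 317 CPM in L2i, had a log2 fold of -0.04 (adjusted p = 0.92).

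Some markers of other cell types rose too, while the summed level of the trophoblast list hardly changed in CGR8. Of 7 tested fibroblast and feeder markers, 4 rose (leave-one-out counts 2, 1, 2 and 1), with a summed level of 25.9 and 36.6 CPM in LIM and 9.93 and 11.2 CPM in L2i. The 4 that rose were Fbn1, Thy1, Col1a1 and Twist1, with log2 folds of 2.50, 2.69, 2.85 and 2.05. Of these, Fbn1 alone stayed called whichever library was left out. The defining fibroblast gene Col3a1 stayed under 0.2 CPM in all 4 libraries, S100a4 was at 0, and Lum had a single read. Of 12 trophoblast markers, which include Krt8 and Krt18, 6 rose (5, 4, 3 and 5) and 2 fell (1 in each), with a summed level of 213 and 166 CPM in LIM and 175 and 167 CPM in L2i, and Elf5 stayed under 0.4 CPM. Of 10 neural markers 7 rose (6, 7, 6 and 7) and 1 fell (0, 0, 0 and 1), with a summed level of 791 and 627 CPM in LIM and 397 and 278 CPM in L2i, while Dcx, Neurog2 and Olig2 stayed under 0.3 CPM. Among the neural markers that rose, Neurod1, Map2 and Stmn2 had log2 folds of 3.99, 4.11 and 1.58. The part of other cell types in these results was not tested.

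**Figure D3:**
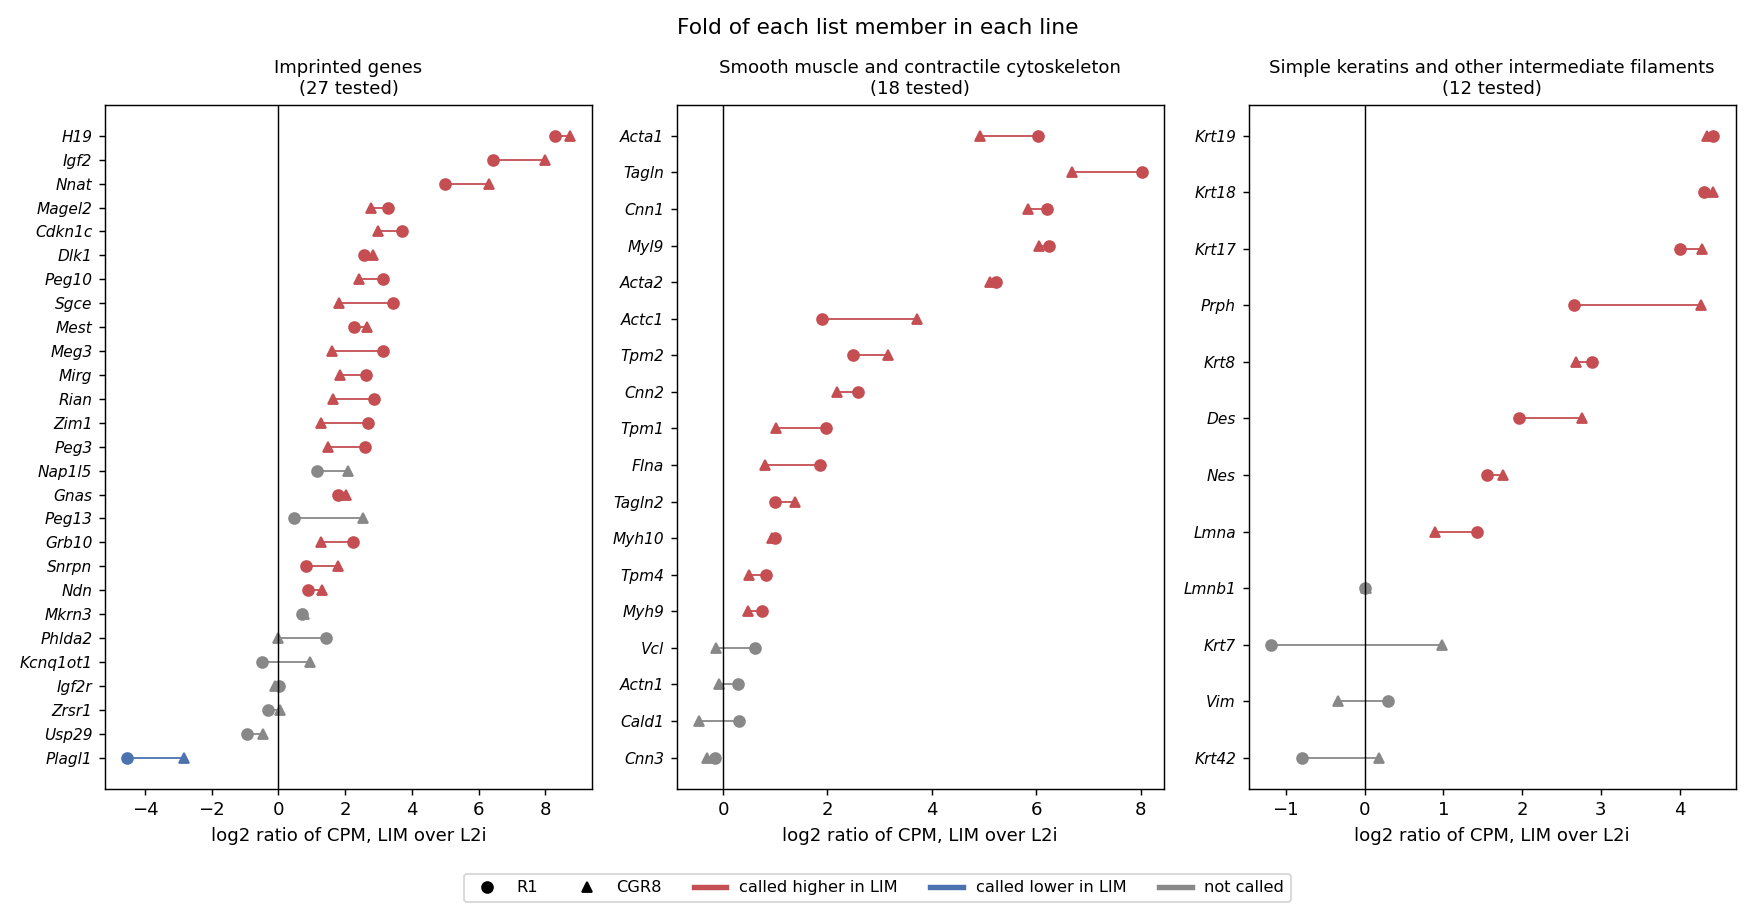
Log2 ratio of CPM, LIM over L2i, in R1 (circles) and CGR8 (triangles) for tested imprinted, contractile and intermediate filament genes, in order of the fitted fold. Most members lie right of 0 in both lines, and Plagl1 alone is called lower.

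Matrix and adhesion genes changed in part. Among laminins and other basement membrane genes, the share that rose (12.5%) was near that of all tested genes (13%). Of 31 collagens 14 rose (leave-one-out counts 10, 6, 8 and 8) and 2 fell (0, 0, 0 and 1). The basement membrane pair Col4a1 and Col4a2 had 126 and 123 CPM and 57.8 and 39.5 CPM in LIM, against 10.3 and 7.17 CPM and 6.2 and 3.98 CPM in L2i (log2 folds 3.83 ± 0.29 and 3.25 ± 0.34). Col2a1, the collagen of cartilage, had 85.7 and 37.7 CPM in LIM and 3.36 and 1.73 CPM in L2i (log2 fold 4.57 ± 0.24, adjusted p = 1.0e-05). Of 16 laminins and other basement membrane genes 2 rose (2, 2, 1 and 2) and 3 fell (1, 0, 2 and 1). Primitive endoderm markers, which include Col4a1, rose in 4 of 10 tested cases (2, 2, 1 and 2), with a summed level of 218 and 176 CPM in LIM and 53.2 and 130 CPM in L2i, while Gata6 and Sox17 stayed under 0.3 CPM and Ttr was at 0, and their part in the result was not tested. Col4a1 alone made up most of that sum in LIM (126 and 123 CPM) and little of it in L2i (10.3 and 7.17 CPM). Without Col4a1 the sum was higher in LIM in R1 and lower in LIM in CGR8. Dab2 and Hnf4a, also of this list, were called higher (log2 folds 2.39 and 2.94). Neither stayed called whichever library was left out. Of the cadherins, Cdh2 (N-cadherin) rose 5.74-fold and Cdh3 (P-cadherin) 2.29-fold. Cdh1 (E-cadherin) had 541 and 630 CPM in LIM and 926 and 871 CPM in L2i (log2 fold -0.61, adjusted p = 0.026), and was called without the CGR8 LIM library but not without any of the others (adjusted p 0.11 to 0.23). The gap junction genes Gja1 and Gjc1 moved in opposite directions, by log2 folds of 2.39 ± 0.23 and -1.43 ± 0.20. None of 16 tested clustered protocadherins was called by edgeR's quasi-likelihood test, and 0 had an unadjusted p under 0.05 or were called by DESeq2 or limma-voom.

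Genes of choline breakdown and of methionine regeneration were among those that fell furthest. Dmgdh, Bhmt2 and Bhmt are neighbours on chromosome 13 (GRCm38, GENCODE M21 annotation, 93674433 to 93752833 on the plus strand, and 93655720 to 93674302 and 93616675 to 93637961 on the minus strand). Bhmt and Bhmt2 regenerate methionine from homocysteine. In choline breakdown, Bhmt takes betaine as the methyl donor, and Dmgdh oxidises the dimethylglycine that results. Dmgdh had 1.56 and 2.14 CPM in LIM and 90.5 and 150 CPM in L2i (log2 fold -6.02 ± 0.35, adjusted p = 1.6e-05). Bhmt2 had 0.376 and 0.773 CPM in LIM and 31.5 and 46.9 CPM in L2i (log2 fold -6.11 ± 0.36, adjusted p = 2.9e-05). Bhmt had 0.376 and 0.416 CPM in LIM and 13.7 and 40.2 CPM in L2i (log2 fold -5.96 ± 0.58, -6.65 without the R1 LIM and -5.07 without the CGR8 LIM library). All 3 were low in LIM in both lines. Bhmt and Bhmt2 are similar in sequence, so reads may be split between them.

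Dmgdh and Bhmt2 start on opposite strands 133 bases apart, and the window between them is shown because both genes fell together. The sequence is from RefSeq on GRCm38.p6, on the plus strand, and capitals mark the bases between the starts of Bhmt2 and Dmgdh.
Dmgdh and Bhmt2 (chr13:93674186-93674485, + strand): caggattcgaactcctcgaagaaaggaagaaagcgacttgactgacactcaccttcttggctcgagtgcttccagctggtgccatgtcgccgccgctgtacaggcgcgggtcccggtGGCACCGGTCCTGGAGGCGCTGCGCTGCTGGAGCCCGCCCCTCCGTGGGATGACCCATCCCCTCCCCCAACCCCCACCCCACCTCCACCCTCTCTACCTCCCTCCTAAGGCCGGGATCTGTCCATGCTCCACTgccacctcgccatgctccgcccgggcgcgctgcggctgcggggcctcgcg
It holds no match to CTTTGAA or CTTTGAT on either strand.

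Other genes of amino acid and metal metabolism fell too. Cbs, which draws homocysteine into cysteine synthesis, had 27.1 and 28.7 CPM in LIM and 104 and 132 CPM in L2i (log2 fold -2.08 ± 0.15, adjusted p = 4.2e-05). Tdh, threonine dehydrogenase, the enzyme on which mouse ES cells depend for growth, had 259 and 266 CPM in LIM and 755 and 757 CPM in L2i (log2 fold -1.53 ± 0.15, adjusted p = 0.00019). Asns, which makes asparagine, had 362 and 331 CPM in LIM and 1093 and 900 CPM in L2i (log2 fold -1.52 ± 0.18). The metal-binding metallothionein Mt1 had 212 and 191 CPM in LIM and 669 and 652 CPM in L2i (log2 fold -1.71 ± 0.22). In each of these genes the spread between lines was small beside the difference between media. Of 18 genes of serine, glycine and one-carbon metabolism, 6 fell (leave-one-out counts 1, 4, 2 and 6) and 1 rose (1, 0, 0 and 0), with the serine synthesis gene Phgdh at a log2 fold of 0.27 (adjusted p = 0.47).

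Redox defence rests on glutathione and on genes induced by NRF2. Of 20 genes of glutathione metabolism and NRF2 targets, 8 fell (leave-one-out counts 5, 9, 5 and 8) and 3 rose (2, 2, 2 and 2). Gpx2, a glutathione peroxidase of epithelia, had 3.32 and 5.71 CPM in LIM and 30.5 and 54.6 CPM in L2i (log2 fold -3.22 ± 0.24, adjusted p = 4.8e-05). Nfe2l2, which encodes NRF2, and Keap1, which holds NRF2 in check, fell 1.84-fold and 2.13-fold. Of the fatty acid oxidation and peroxisome list, 4 of 17 were lower (1, 3, 2 and 3) and 0 higher, where edgeR gave 1 at an unadjusted p under 0.05 and DESeq2 and limma-voom called 0. Cpt1a, the entry enzyme of mitochondrial fatty acid oxidation, had 20.9 and 47.7 CPM in LIM and 122 and 150 CPM in L2i (log2 fold -2.06 ± 0.23).

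Cells make cholesterol through the mevalonate pathway. In the list of cholesterol and fatty acid synthesis 12 of 28 rose (leave-one-out counts 9, 7, 4 and 9) and none fell, and all 12 belong to the sterol branch. Lss, which closes the sterol rings, had 240 and 253 CPM in LIM and 79.7 and 86 CPM in L2i (log2 fold 1.57 ± 0.13, adjusted p = 7.2e-05), and Pmvk rose 2.69-fold. The fatty acid genes Fasn, Acaca, Acly and Scd1 had log2 folds of 0.19, 0.23, -0.12 and 0.24, none called.

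Carriers and channels set what enters and leaves the cell. Over all tested genes 13% were called higher and 9.53% lower, and the share of solute carriers that rose was near the former. Slc2a1, the main glucose carrier, had 634 and 1034 CPM in LIM and 156 and 236 CPM in L2i (log2 fold 2.08 ± 0.13, adjusted p = 2.0e-05). The lactate exporter Slc16a3 had 117 and 431 CPM in LIM and 10.7 and 16.2 CPM in L2i (log2 fold 4.23 ± 0.43), and 3.25 without the CGR8 LIM and 4.93 without the R1 LIM library. Of 20 genes of glycolysis and lactate 4 rose (leave-one-out counts 12, 2, 2 and 2) and 1 fell (0, 2, 0 and 0), the gene that fell being Ldhb, which was not called when any library was left out. Of 265 solute carriers tested 37 rose (leave-one-out counts 33, 23, 24 and 27) and 40 fell (16, 21, 13 and 26), which is 14 and 15.1% of the list, and their median log2 fold was -0.07. Of 28 calcium and sodium channel genes 12 rose (6, 6, 5 and 8) and 1 fell (1, 1, 1 and 2). Of 80 nuclear genes of the respiratory chain 17 fell, but 1 did without the R1 LIM or the R1 L2i library, 7 without the CGR8 LIM and 21 without the CGR8 L2i library, and their median log2 fold was -0.29.

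**Figure D4:**
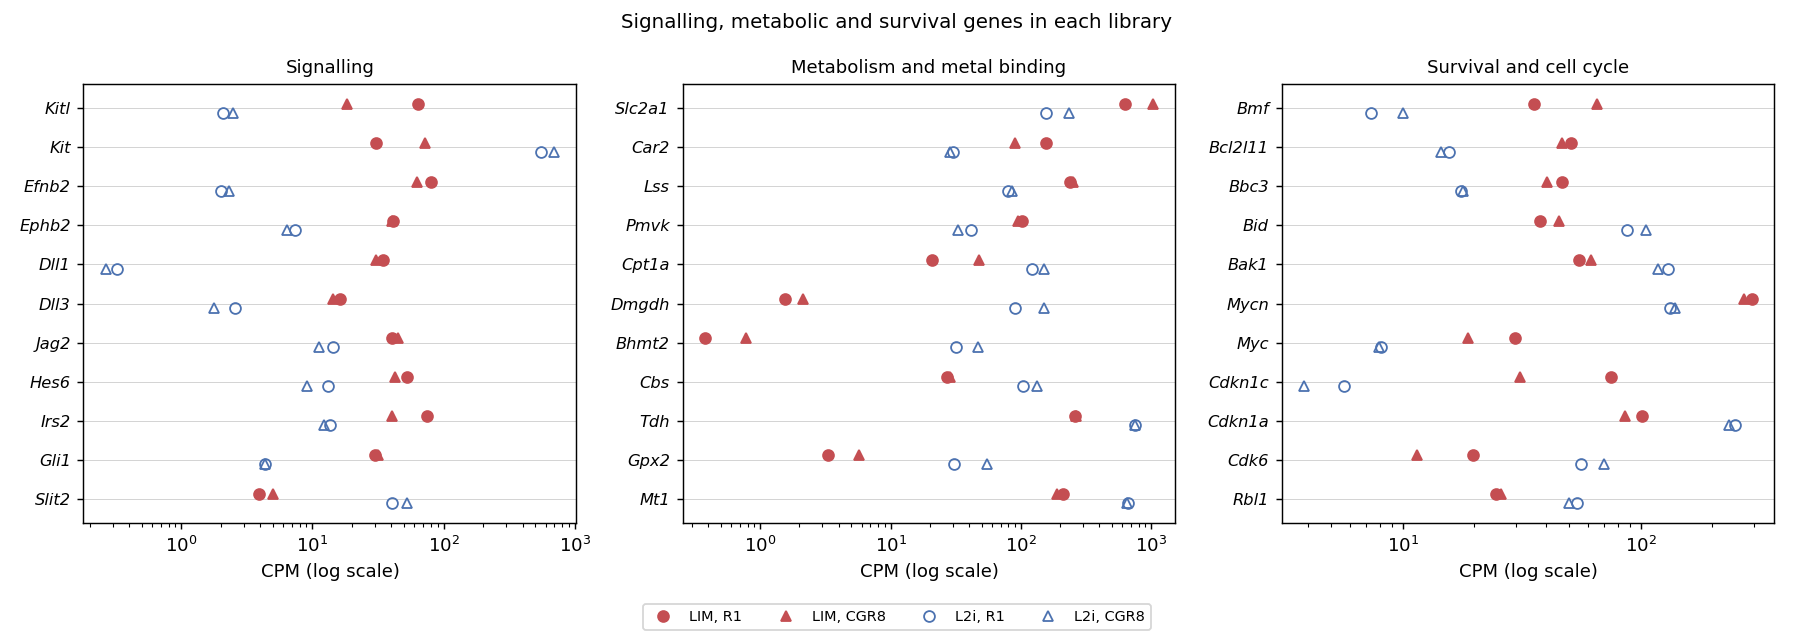
CPM on a log axis in each library for genes of signalling, metabolism and survival, LIM filled and L2i open, circles R1 and triangles CGR8. For each of the 33 genes both LIM libraries lie on 1 side of both L2i libraries.

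Lysosomes break down and recycle cell material. Of 27 of their genes tested, 9 fell (leave-one-out counts 6, 4, 5 and 5) and 3 rose (1, 0, 0 and 1), with a median log2 fold of -0.34. Ctsb, a cysteine protease of lysosomes, had 89 and 93 CPM in LIM and 202 and 244 CPM in L2i (log2 fold -1.29 ± 0.13, adjusted p = 0.00023). Npc2, which carries cholesterol out of lysosomes, fell 2.21-fold and the protease Ctsl fell 2.08-fold. Promoters were in the reference for 22 of the 27 genes, and that of Ctsb was not among them. The E-box TCACGTGA, read on both strands and bound by MiT/TFE factors, stood in 4 of 29 promoters of the list (13.8%), those of Ctsa, Ctsd, Gla and Mcoln1, against 243 of 14381 promoters of all tested genes (1.69%), and of these 4 genes Ctsa was called (log2 fold -0.67, adjusted p = 0.012), though its adjusted p was 0.12, 0.082 and 0.06 without the CGR8 LIM, R1 L2i or CGR8 L2i library.

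Most tested imprinted genes rose. Imprinted genes are expressed from 1 parental allele under marks set in the germ line, and the libraries here do not separate alleles. Of 27 tested, 18 rose (leave-one-out counts 17, 14, 13 and 17) and 1 fell, with a median log2 fold of 2.06, and their summed level was 3688 and 2474 CPM in LIM and 856 and 858 CPM in L2i. H19, a maternally expressed long non-coding RNA, had 241 and 51.6 CPM in LIM and 0.643 and 0 CPM in L2i (log2 fold 8.87 ± 0.40, adjusted p = 5.0e-06), 9.58 without the R1 LIM and 12.54 without the R1 L2i library. Igf2, the paternally expressed growth factor beside it, had 157 and 47.3 CPM in LIM and 1.7 and 0.0664 CPM in L2i (log2 fold 6.84 ± 0.42, and 9.45 without the R1 L2i library). Both genes of this pair thus rose although they are expressed from opposite alleles. Mest, a paternally expressed gene, had 399 and 306 CPM in LIM and 82.5 and 48.7 CPM in L2i (log2 fold 2.46 ± 0.14, adjusted p = 1.5e-05). The maternally expressed inhibitor of the cell cycle Cdkn1c had 74.9 and 31.1 CPM in LIM and 5.7 and 3.85 CPM in L2i (log2 fold 3.40 ± 0.29). Meg3, Rian and Mirg, non-coding RNAs in a row on chromosome 12, had log2 folds of 2.36, 2.22 and 2.24. Plagl1, a zinc finger gene and the 1 that fell, had 3.94 and 3.92 CPM in LIM and 93.5 and 28.6 CPM in L2i (log2 fold -3.67). Its log2 fold was -2.81 without the R1 LIM and -4.60 without the CGR8 LIM library.

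Genes of DNA methylation and RNA regulation changed too. Dnmt3l, the cofactor of de novo methylation, had 630 and 602 CPM in LIM and 40.8 and 21.3 CPM in L2i (log2 fold 4.35 ± 0.23, adjusted p = 9.6e-06), while the maintenance genes Dnmt1 and Uhrf1 had log2 folds of 0.07 and -0.07, neither called. Of the dioxygenases that oxidise methylcytosine, Tet3 rose 4.58-fold and Tet2 fell 3.09-fold. Lin28a, which blocks the maturation of let-7 microRNAs, had 850 and 626 CPM in LIM and 98.9 and 131 CPM in L2i (log2 fold 2.68 ± 0.21), and Lin28b rose 4-fold.

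The BCL2 family sets the threshold for cell death. Of 15 genes of the BCL2 family 5 rose (leave-one-out counts 4, 4, 4 and 4) and 3 fell (2, 2, 2 and 3). These are 33.3 and 20% of the list, against 13 and 9.53% of all tested genes. The 5 that rose, Bcl2l11 (Bim), Bmf, Bbc3 (Puma), Hrk and Pmaip1 (Noxa), encode BH3-only proteins, which promote death. Pmaip1 was not called when any library was left out (adjusted p 0.081 to 0.24), and Hrk had a log2 fold of 3.26, and 4.23 without the R1 L2i library. Bcl2l11 had 51.1 and 46.6 CPM in LIM and 15.6 and 14.5 CPM in L2i (log2 fold 1.70 ± 0.17, adjusted p = 0.00019), and Bmf rose 5.72-fold. Bak1, a pore-forming member, had 55.1 and 61.9 CPM in LIM and 130 and 118 CPM in L2i (log2 fold -1.09 ± 0.15), and Bid fell 2.32-fold. Bid is a BH3-only protein too, so this class moved in both directions. So is Bad, the other member called lower (log2 fold -0.73, adjusted p = 0.049), but its adjusted p was 0.29, 0.083 and 0.39 without the R1 LIM, CGR8 LIM or R1 L2i library, and it was not called without the replicate block. The guardians Bcl2l1 and Mcl1 had log2 folds of 0.21 and -0.35, with adjusted p of 0.37 and 0.081.

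Of 18 G1 cyclins, kinases and inhibitors 5 fell (leave-one-out counts 3, 5, 3 and 3) and 2 rose (2 in each). The share that rose (11.1%) was near that of all tested genes (13%), while 27.8% fell, against 9.53% of all tested genes. Those that rose were the inhibitor Cdkn1c, given above, and the cyclin gene Ccnd2, which had the largest change of the list. Ccnd2, a D-type cyclin that activates Cdk4 and Cdk6, had 45 and 18.5 CPM in LIM and 0.368 and 0.996 CPM in L2i (log2 fold 5.60 ± 0.62). Its log2 fold was 4.57 and 6.41 without the R1 LIM or CGR8 LIM library, and 4.84 and 6.46 without the R1 L2i or CGR8 L2i library. Cdkn1a (p21) had 101 and 85.9 CPM in LIM and 248 and 236 CPM in L2i (log2 fold -1.37 ± 0.19, adjusted p = 0.00096), and Cdk6 and Rbl1 fell 4.05-fold and 2.05-fold. Mycn had 294 and 272 CPM in LIM and 133 and 140 CPM in L2i (log2 fold 1.05 ± 0.15), and Myc, whose protein GSK3 marks for destruction, rose 2.96-fold at a lower level. Of 21 genes of replication 1 fell (leave-one-out counts 0, 0, 0 and 1) and none rose, and of 17 genes of mitosis 1 rose (0, 2, 0 and 1) and none fell.

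In several groups the share called was at or under the share over all genes. The 38 proteasome subunits had 1 rise (leave-one-out counts 0 in each) and 1 fall (0, 0, 0 and 2). The 18 genes of glycogen metabolism, whose synthase GSK3 inhibits, had 1 rise (1, 0, 0 and 0) and 1 fall (1, 2, 1 and 1). None of 14 heat shock genes was called by edgeR's quasi-likelihood test, while 3 had an unadjusted p under 0.05 and DESeq2 called 2 and limma-voom 1, all lower in LIM. Of 363 zinc finger genes of the Zfp series 24 rose (13, 12, 9 and 19) and 32 fell (14, 10, 22 and 10). Of 83 ribosomal protein genes 9 fell (leave-one-out counts 2, 3, 1 and 13), a share near that of all genes, and their median log2 fold was -0.29. Ribosomal protein genes have many pseudogene copies, so their counts are uncertain.

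**Figure D5:**
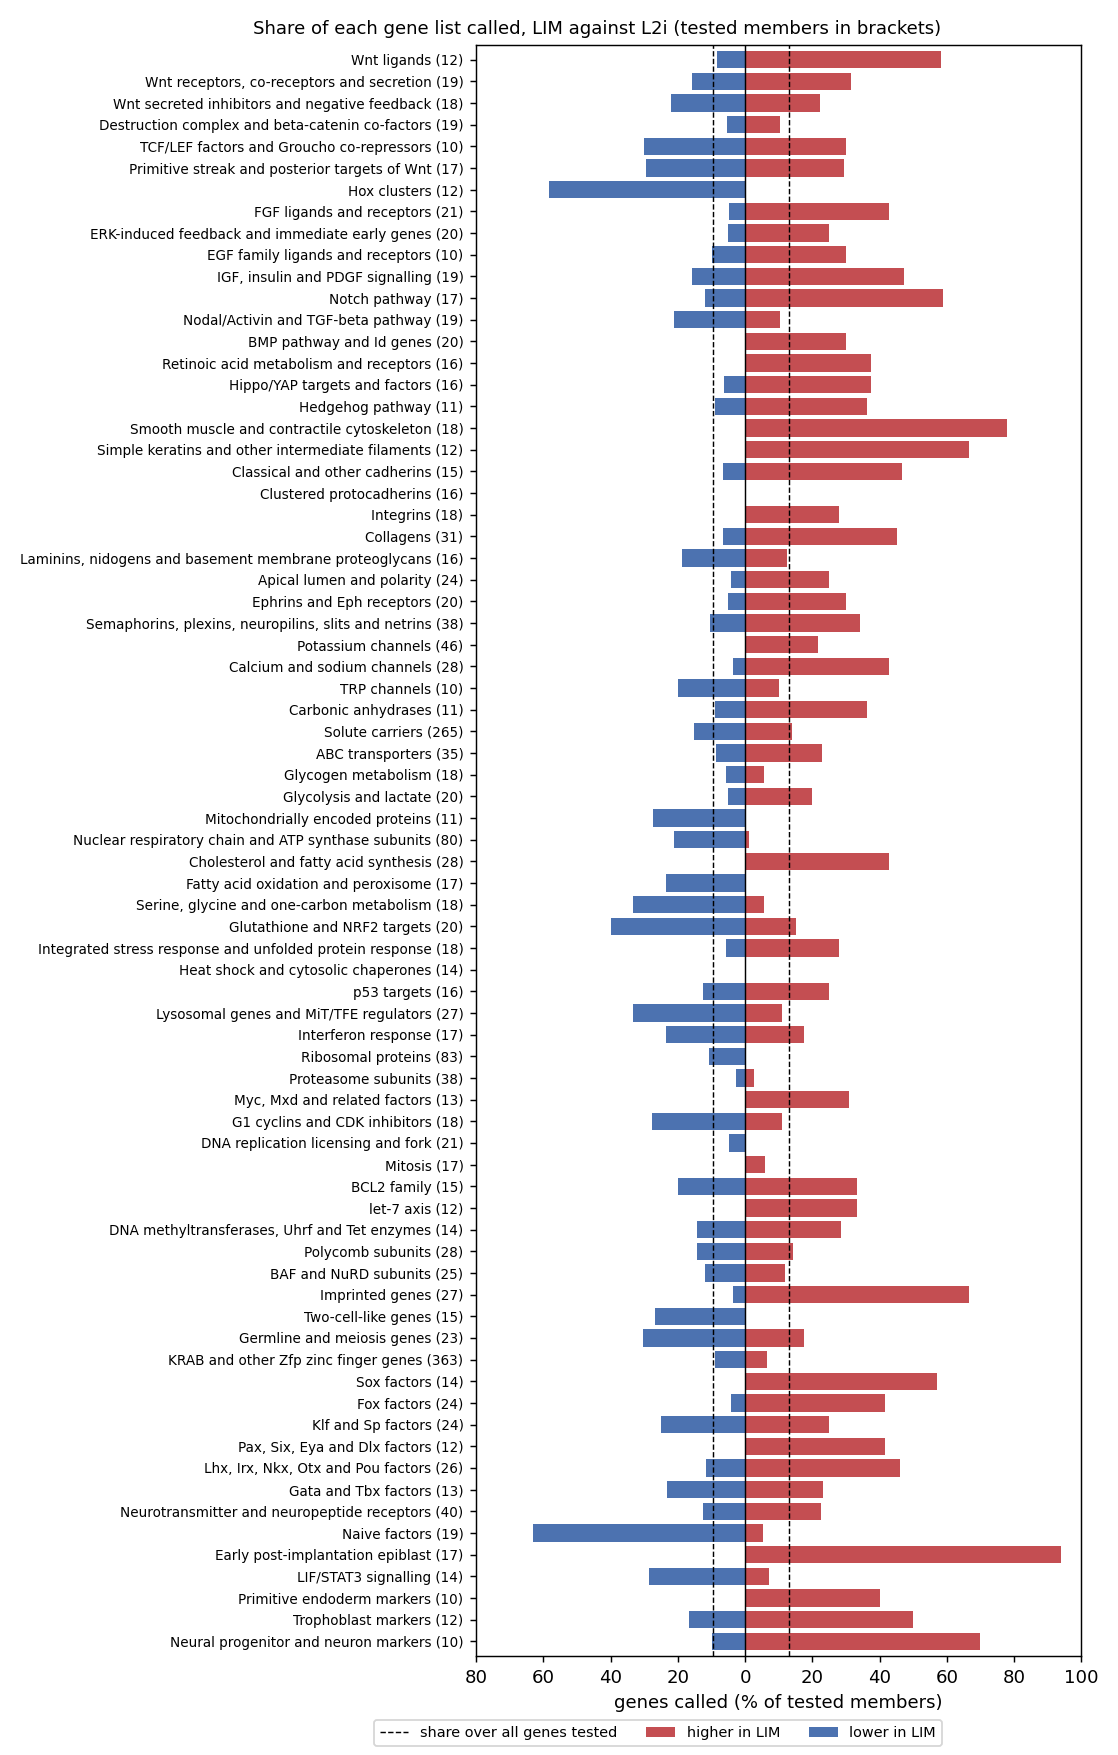
Share of tested members called lower (left) and higher (right) in LIM for each gene list with at least 10 tested members, the number in brackets and dashed lines at the shares over all tested genes (13% higher, 9.53% lower). Early post-implantation epiblast genes reach furthest right (94.1%). Contractile, neural marker, imprinted, intermediate filament, Notch, Wnt ligand and Sox lists also reach far right of the line. Naive factors reach far left. Hox genes do too, but only 12 of 39 passed the filter on low counts, so their bar is no measure of the family.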

How the data were processed

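Poly(A) RNA of each culture was sequenced with a stranded kit. The deposited values are raw counts per Ensembl gene, made by the authors with HISAT2 2.0.4 on GRCm38 and HTSeq 0.6.1, per the submitters' processing notes; the annotation release and the strand setting of the counting are not given in the sources used here. Overlapping, antisense and near-identical genes are therefore uncertain. The 5 summary rows were left out of library sizes and tests; they held 47.7 to 51.9% of the records of a library, mostly multiply aligned reads (37.9 to 45.2%).

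Of 47729 genes, 47224 matched GENCODE M21 names. edgeR 4.0.16 (R 4.3.3) fitted a quasi-likelihood model with group and line to the 8 libraries of the set (3 residual degrees of freedom, TMM scaling, filterByExpr), with Benjamini-Hochberg adjusted p under 0.05. The standard error is the log2 fold divided by the root of F. In simulated LIM and L2i counts for 15024 genes, 85.7% of genes changed 4-fold and 50.5% changed 2-fold were recovered.

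Line numbers pair the libraries because each number is 1 cell line; deviations of LIM and L2i of the same line correlated at 0.16. Time course libraries of L2i and of LIM at day 4 served for direction; the other 7 were not used. Intervals and floors cover counting error only.

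Named genes were the largest and most significant changes that stayed called in every fit with 1 library left out, called members of each list, and genes in which the lines moved oppositely. Members, lists and the Dmgdh and Bhmt2 window were chosen with earlier results of these data known. Alternatives were DESeq2 1.42.0, limma 3.58.1 (voom), other scalings, filters and libraries.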

Additional observations from a re-analysis of the deposited data

Results flagged for a closer look

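In 8 genes with a mean of at least 10 CPM the lines moved in opposite directions between LIM and L2i, and these are the 8 with the largest such moves. With 1 library per line and medium the difference between the lines was not tested. Lefty1 and Lefty2, inhibitors of Nodal signalling, had log2 ratios of -1.74 and -2.91 in R1 and 1.91 and 1.34 in CGR8. Cyp1a1, an enzyme induced by the aryl hydrocarbon receptor, had 2.37 in R1 and -1.13 in CGR8. Lama1, a laminin chain, had 0.89 in R1 and -1.91 in CGR8. The mitochondrial gene mt-Atp8, which has nuclear copies, had 0.85 in R1 and -1.26 in CGR8. Igsf8, a membrane protein, had -0.83 in R1 and 0.91 in CGR8. Slc4a8, a bicarbonate carrier, had -1.48 in R1 and 0.82 in CGR8. Tpi1, a glycolytic enzyme, had -0.78 in R1 and 1.00 in CGR8.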

How the results depend on the processing

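Called genes numbered 2023 higher and 1480 lower. With a log2 fold threshold of 1 they numbered 791 higher and 296 lower, so that 72.8% of the calls were higher, against 57.8%. With the 4 LIM and L2i libraries and no replicate block, 1346 were higher and 1014 lower. Leaving out 1 library gave 988 to 1458 higher and 573 to 992 lower; the lone library of a medium is then assumed to vary like the other groups. Without the replicate block, which pairs the libraries by line, 1750 were higher and 1212 lower. Without TMM factors the median of all genes shifted by 0.062 (log2) and 2193 were higher and 1235 lower. The causes of these differences were not tested. No gene called in both fits changed direction. Genes that were not called changed sign when 1 library was left out. Their log2 folds over these fits were Lefty1 -1.57 to 1.77, Lefty2 -2.30 to 0.94, Cyp1a1 -0.86 to 2.05, Lama1 -1.81 to 0.79, mt-Atp8 -1.14 to 0.73, Igsf8 -0.71 to 0.79, Slc4a8 -1.21 to 0.48, Tpi1 -0.70 to 0.93, Acly -0.27 to 0.03, Actn1 -0.06 to 0.26, Bcl2l1 -0.00 to 0.42, Cald1 -0.37 to 0.21, Lrp5 -0.41 to 0.07, Mcoln1 -0.18 to 0.08, Tcf7l1 -0.02 to 0.22, Vcl -0.04 to 0.55, Vim -0.38 to 0.34. In other settings Lefty1 was at 0.04 (4 libraries with the block), Igsf8 at -0.03 (limma-voom), and Mcoln1 and Vim at 0.01 and 0.02 (raw totals). Depth limits genes with few counts, where folds against a medium without counts are bounds.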
